A study of Mus musculus with 38 samples.

Results

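The core circadian clock was followed through its 10 genes Arntl, Npas2, Clock, Cry1, Nr1d1, Nr1d2, Dbp, Ciart, Per2 and Per3, chosen by gene symbol out of the 55487 genes of the count table. They were taken as opposed arms, with 4 genes in the Arntl arm (Arntl, Npas2, Clock and Cry1) and 6 in the Nr1d1 arm (Nr1d1, Nr1d2, Dbp, Ciart, Per2 and Per3). All 10 passed the filter on low counts in each of the 3 experiments. RNA-Seq counts were available for 38 libraries in 10 groups.

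In the anti-GBM experiment, male C57BL/6JRj mice aged 8 weeks were immunized with sheep IgG in Freund's complete adjuvant and then given nephrotoxic serum, which causes an immune glomerulonephritis, while healthy controls received PBS. Each mouse then received daily intravenous recombinant human FGF23 (1 µg) or its vehicle, PBS with BSA, for 6 days. There were 4 healthy mice with vehicle, 3 healthy with FGF23, 4 anti-GBM with vehicle and 3 anti-GBM with FGF23. In the Adriamycin experiment, BALB/c females, also aged 8 weeks, were given Adriamycin once, a drug toxic to podocytes, or saline, and later 1 injection of 1 µg FGF23 or vehicle, with 4 mice in each of the 4 groups. Kidneys of both experiments were taken 24 h after the last FGF23 or vehicle injection, at an age of 10 weeks. Precision-cut kidney slices (PCKS) came from male DBA/2J mice with adenine nephropathy (diet with 0.2% adenine for 15 weeks). These mice were older, 23 weeks at euthanasia. Slices were incubated for 20 h and treated with FGF23 at 200 ng/mL or vehicle, 4 cultures each. No disease-free slices were made. The labels give 1 h for the slice treatment and a figure legend of the study gives 24 h. The mice were kept on 12 h of light and 12 h of dark; the hour at which kidneys were collected is not given in the sources used here, and its part in any result was not tested.

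The clock is a transcriptional loop. ARNTL (BMAL1) pairs with CLOCK or NPAS2 and activates genes that carry E-box motifs, among them the period genes, Cry1, Nr1d1, Nr1d2, Dbp and Ciart. PER and CRY proteins close the loop by repressing that pair, and the nuclear receptors NR1D1 and NR1D2 (REV-ERBα and REV-ERBβ) repress Arntl, Npas2, Clock and Cry1 through ROR elements. DBP activates genes with D-box motifs such as Per3, and CIART is a further repressor of the ARNTL pair. In kidney and other organs, Arntl and Npas2 therefore peak at about the opposite phase of the day from Nr1d1 and Dbp, and Cry1, although a repressor, peaks late, near the Arntl side. Levels in a single kidney thus depend on the hour as well as on the state of the tissue.

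The motifs of the loop were looked for on both strands in windows from 250 bases before to 50 bases after the start of each gene (RefSeq, GRCm38.p6); 9 of the 10 genes had a window, and Per2 had none. The E-box CACGTG was in 7.15% of all windows of the same length, the D-box (TTATGTAA, TTATATAA or TTACGTAA) in 1.59%, and the ROR element (TAGGTCA or TGGGTCA) in 6.45%. Matches were found only in Ciart, Cry1, Per3 and Arntl, and all of them are shown. Npas2, Clock, Nr1d1, Nr1d2 and Dbp had no match to any of these motifs in their windows. Capitals mark the motif, and each sequence is written 5′ to 3′ on the strand of the gene.
Ciart, chr3:95882257-95882354, minus strand, 3 E-boxes: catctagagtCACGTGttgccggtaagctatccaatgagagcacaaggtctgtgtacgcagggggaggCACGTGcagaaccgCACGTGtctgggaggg
Cry1, chr10:85185099-85185124, minus strand, 1 E-box: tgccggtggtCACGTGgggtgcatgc
Per3, chr4:151044806-151044880, minus strand, 2 D-boxes: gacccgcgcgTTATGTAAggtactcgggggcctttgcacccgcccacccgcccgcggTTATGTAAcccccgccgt
Arntl, chr7:113207533-113207555, plus strand, 1 ROR element: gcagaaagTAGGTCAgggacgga
The Ciart E-boxes began 116, 58 and 44 bases before the start of the gene, and the Arntl element lay just after the start. No match says only that these letters were not in the window.

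Libraries held between 13704248 and 23630210 counts for anti-GBM, between 15665050 and 27583911 for Adriamycin and between 11186925 and 16254987 for PCKS. Tubular injury markers (Havcr1, Lcn2, Krt20, Vcam1) summed to 15.7 to 26.5 CPM (counts of a gene relative to the TMM-scaled library size) in healthy mice of the anti-GBM experiment and to 350 to 1029 in anti-GBM mice. In the Adriamycin experiment they summed to 98.3 to 184 in healthy and 51.3 to 110 in Adriamycin mice with vehicle, and none of the 4 was called there. The 7 kidney epithelial markers summed to at least 10307 CPM in every mouse kidney and to 2372 to 7733 CPM in the slices. The 3 genes listed as hepatocyte markers (Alb, Apoa1, Cyp2e1) summed to 689 to 2578 CPM in the anti-GBM experiment and to 146 to 328 CPM in the Adriamycin experiment. These experiments differ in strain and sex, and the source of this RNA was not tested. The part of these markers in the clock gene values was not tested either.

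The genes differ widely in level. In healthy vehicle mice of the anti-GBM experiment, CPM per kilobase of exon was highest for Dbp at 63.6 ± 4.76 (SD, n = 4), followed by Nr1d1 at 34.4 ± 2.201 and Nr1d2 at 30.6 ± 1.28. Per2 (6.79 ± 0.853), Ciart (5.20 ± 0.858), Clock (4.87 ± 0.4658) and Per3 (4.52 ± 0.777) formed a middle range in which the mean ± SD ranges of neighbours overlapped. Cry1 was lower at 1.41 ± 0.184, and Npas2 (0.285 ± 0.0728) and Arntl (0.210 ± 0.0162) were lowest. Arntl was counted by only 24 to 36 reads per healthy vehicle kidney, so counting error adds to its spread.

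Anti-GBM disease was compared with healthy kidney first among vehicle mice. Cry1, Arntl, Npas2 and Per2 rose, and Nr1d1, Nr1d2, Per3 and Clock fell, so that 8 of 10 clock genes passed the test (edgeR's quasi-likelihood test, adjusted p below 0.05), 4 in each direction. Of all 15859 genes tested, 39.8% passed, 19.4% as higher and 20.4% as lower. Values are given below as CPM in each mouse, in the order of mice NTS1 to NTS4 (healthy) and NTS5 to NTS8 (anti-GBM). In bulk tissue, fewer cells of a type and less RNA per cell cannot be told apart.

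Cry1, which encodes a repressor of the ARNTL pair, was at 5.49, 4.66, 3.99 and 4.64 CPM in healthy and 14.01, 13, 22.1 and 22.5 CPM in anti-GBM mice. The groups did not overlap, and the log2 fold change was 1.93 ± 0.29 (SE; adjusted p = 0.000246 by edgeR). Arntl was at 1.41, 1.71, 1.60 and 1.59 CPM in healthy and 3.58, 2.83, 6.32 and 5.98 CPM in anti-GBM mice, a log2 fold change of 1.56 ± 0.35 (adjusted p = 0.00332). Every anti-GBM mouse was above every healthy one, and NTS7 and NTS8 were highest. Npas2, the alternative partner of ARNTL, ran from 1.02 to 1.85 CPM in healthy and from 2.10 to 3.44 in anti-GBM mice (0.93 ± 0.32, adjusted p = 0.0338). Clock, the main partner, went the other way from the rest of its arm, with 60.6, 75.5, 63.8 and 67.5 CPM in healthy and 50.4, 46.0, 62.7 and 42.9 CPM in anti-GBM mice. Its groups overlapped, and its fall of −0.40 ± 0.13 (adjusted p = 0.0243) was small beside the changes of Cry1 and Arntl.

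Nr1d1, a repressor of Arntl and Cry1 transcription, was at 114, 98.1, 103 and 109 CPM in healthy and 31.1, 36.3, 11.2 and 20.9 CPM in anti-GBM mice. Its log2 fold change of −2.09 ± 0.55 (adjusted p = 0.00826) was the largest fall among the clock genes in this comparison. Its paralog Nr1d2 was at 167, 162, 159 and 175 CPM in healthy and 117, 116, 70.0 and 58.1 CPM in anti-GBM mice (−0.87 ± 0.22, adjusted p = 0.00582). Both sets of values were separate between the groups. Dbp, the D-box activator, was at 204, 172, 198 and 187 CPM against 113, 132, 31.1 and 46.4 CPM, and its log2 fold change of −1.24 ± 0.48 narrowly missed the threshold (adjusted p = 0.0552) although the groups did not overlap. Over 7 alternatives its adjusted p ran from 0.0230 to 0.133, and it passed in 2 of them, without a filter on low counts and with only these groups fitted (0.0327). With only these groups fitted, Per3 below missed the threshold (0.0523).

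Ciart showed the mice pulling apart. It was at 11.71, 10.3, 10.5 and 14.5 CPM in healthy mice, whereas anti-GBM mice NTS5 and NTS6 were above all of these at 18.7 and 16.9 CPM and NTS7 and NTS8 below all of them at 2.41 and 5.11 CPM. Its mean change of −0.12 ± 0.77 did not pass (adjusted p = 0.918), and the sign turned when healthy mouse NTS4 or anti-GBM mouse NTS7 or NTS8 was left out. The period genes also differed from each other. Per2 was at 36.1, 38.9, 36.99 and 47.04 CPM in healthy and 79.1, 46.5, 63.2 and 52.7 CPM in anti-GBM mice (0.61 ± 0.15, adjusted p = 0.00655). Per3 was at 42.5, 39.9, 37.2 and 54.1 CPM against 38.7, 33.1, 21.3 and 19.9 CPM (−0.62 ± 0.18, adjusted p = 0.0145). In all, 6 of the 10 genes had groups that did not overlap, against 35.2% of all genes tested.

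The comparison was repeated among mice given FGF23, where Cry1, Arntl and Per2 rose and Nr1d1, Dbp, Nr1d2 and Per3 fell, 7 of 10 clock genes. Of all genes tested 27.2% passed, 14.5% as higher and 12.7% as lower. The values follow for healthy mice NTS9 to NTS11 and anti-GBM mice NTS13, NTS14 and NTS16. These groups share no mouse with the vehicle groups, but both comparisons come from 1 fit with a common spread.

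Cry1 was at 2.49, 3.80 and 2.02 CPM in healthy and 17.9, 20.1 and 7.38 CPM in anti-GBM mice (log2 fold change 2.43 ± 0.36, adjusted p = 0.000271 by edgeR). Arntl was at 1.97, 1.78 and 2.86 CPM against 7.83, 8.11 and 2.62 CPM (1.504 ± 0.39, adjusted p = 0.0112). The Arntl groups overlapped, because NTS16 lay below the highest healthy mouse. Per2 was at 31.7, 38.2 and 25.9 CPM against 59.9, 54.1 and 57.8 CPM (0.84 ± 0.18, adjusted p = 0.00336), and here NTS16 lay with its group. Npas2 (0.44 ± 0.36) and Clock (0.02 ± 0.15) did not pass.

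In the Nr1d1 arm, NTS16 stood apart from the other anti-GBM mice. Nr1d1 was at 105, 151 and 133 CPM in healthy mice and at 9.47, 9.41 and 77.7 CPM in NTS13, NTS14 and NTS16 (−2.01 ± 0.63, adjusted p = 0.0284). Dbp was at 216, 212 and 175 CPM against 27.3, 29.3 and 133 CPM (−1.67 ± 0.56, adjusted p = 0.0410). Both genes were nearly alike in NTS13 and NTS14 and several-fold higher in NTS16, yet below every healthy mouse. Nr1d2 was at 151, 146 and 139 CPM against 59.9, 62.0 and 107 CPM (−0.93 ± 0.25, adjusted p = 0.0135). Ciart was at 18.5, 11.73 and 12.3 CPM in healthy mice, at 1.06 and 1.05 CPM in NTS13 and NTS14, and at 23.5 CPM in NTS16, the highest of all 14 mice. Its mean change was −0.74 ± 0.89 (adjusted p = 0.581).

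Leaving out NTS16 took the log2 fold change of Ciart to −3.75 (adjusted p = 0.00375 by edgeR), of Nr1d1 to −3.78 and of Dbp to −2.83. NTS16 is the mouse that went against the change, and without it only NTS13 and NTS14 remain in the group. These larger changes are therefore no separate evidence. With NTS16, 6 of the 10 genes had groups that did not overlap, against 45.4% of all genes. Per3 was at 43.7, 48.6 and 45.7 CPM against 30.3, 30.1 and 31.5 CPM (−0.59 ± 0.21, adjusted p = 0.0479), and NTS16 lay with its group. This call was lost in 4 of 7 alternatives, with RLE scaling (adjusted p = 0.0506), with at least 10 counts in every library (0.0623), with a robust fit (0.0511) and with adjustment over all comparisons (0.0910), and in 11 of 14 fits that left out 1 mouse. With only these groups fitted, the calls of Dbp (0.0567) and Nr1d1 (0.0771) were lost. The count of called clock genes was 2 without NTS13, 3 without NTS14, and 4 without healthy mouse NTS10 or NTS11.

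**Figure D1:**
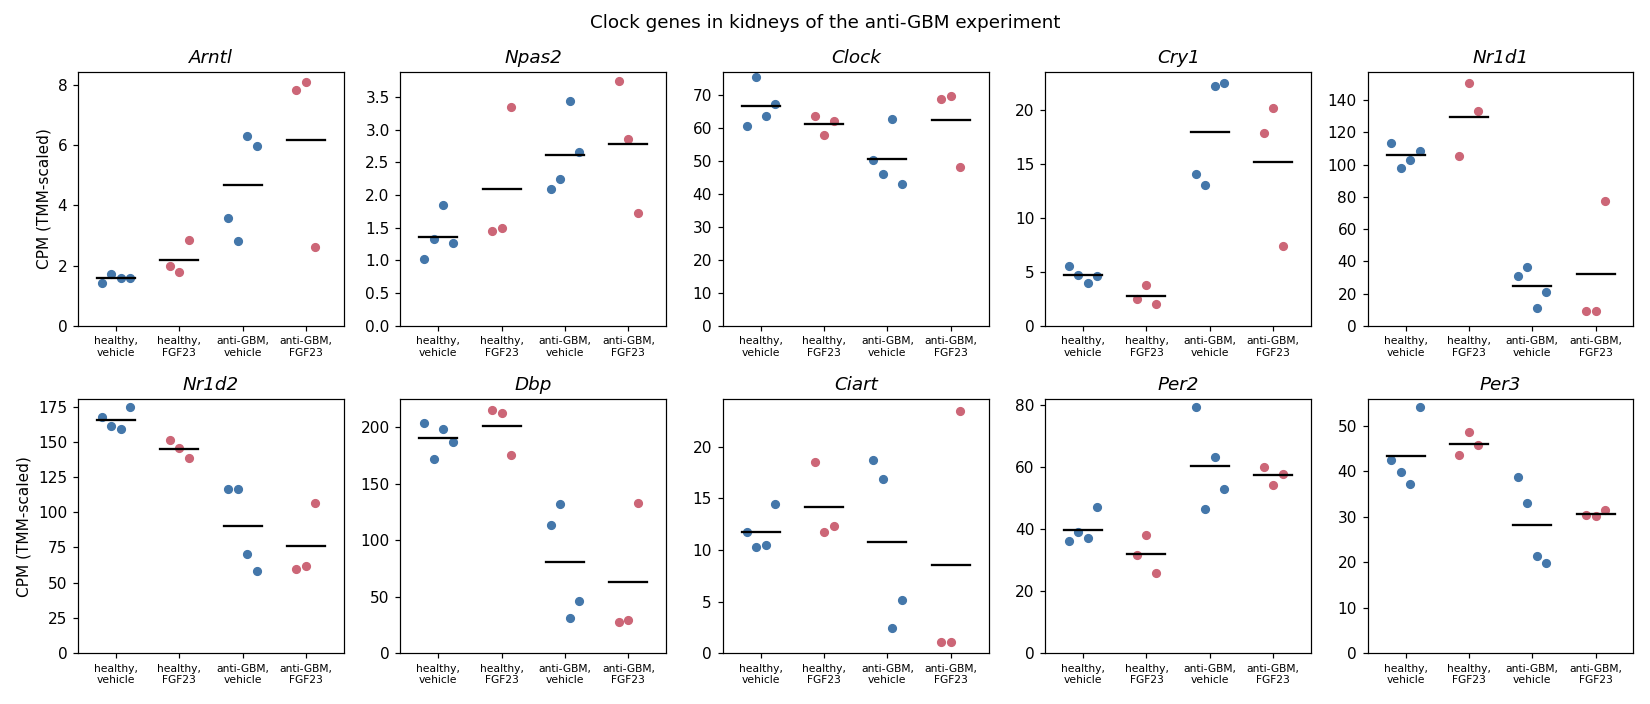
CPM (vertical axis, from 0) of the 10 clock genes in the 14 kidneys of the anti-GBM experiment by group; each point is a mouse, the bar is the group mean, and vehicle is blue and FGF23 red. Anti-GBM mice spread widely for some genes, for example from 1.05 to 23.5 CPM for Ciart with FGF23, where the highest is NTS16. Healthy mice lie closer together for Ciart. With FGF23, anti-GBM mice lie close together for Per2 and Per3, and healthy mice spread for Npas2.

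**Figure D2:**
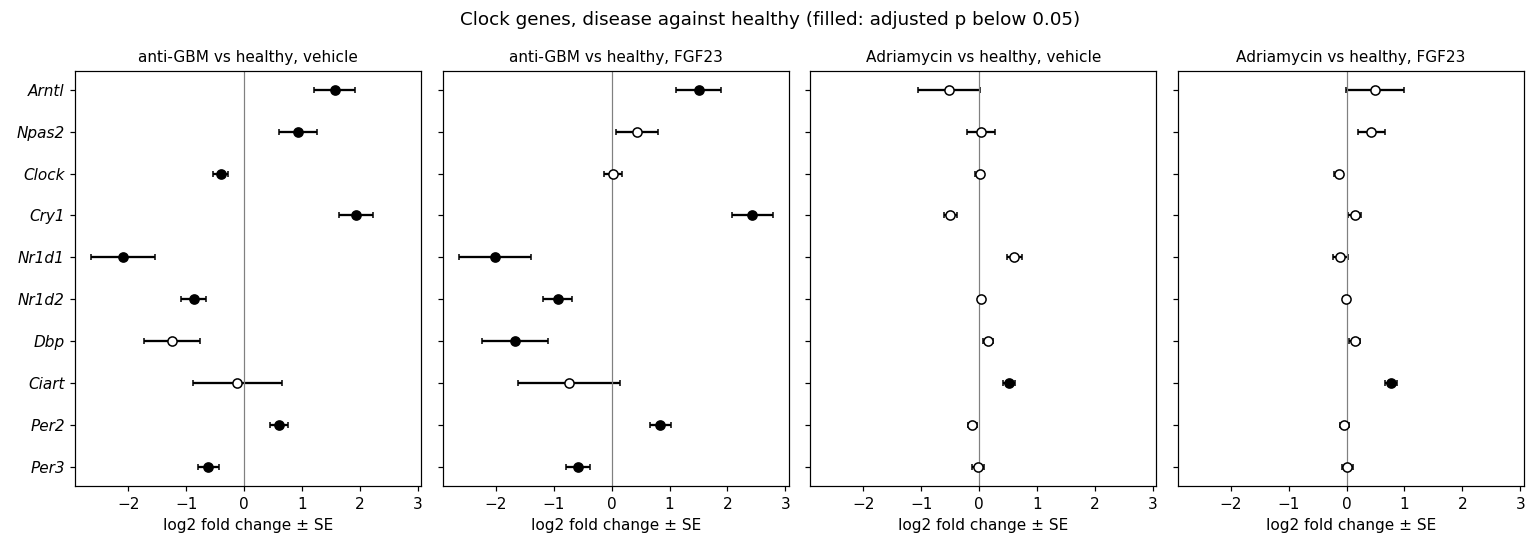
Log2 fold changes of disease against healthy kidney (horizontal axis) with their SE for the 10 clock genes in both mouse experiments; filled points passed an adjusted p below 0.05 by edgeR. Cry1 and Arntl are higher and Nr1d1 is lower in both anti-GBM comparisons, and Ciart is the filled point in both Adriamycin comparisons.

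The arms were set against each other in each mouse as the mean log2 CPM of the Arntl arm minus that of the Nr1d1 arm. This difference was −3.71, −3.42, −3.47 and −3.77 in healthy vehicle mice and −3.79, −3.74 and −3.31 in healthy FGF23 mice. It was −2.62, −2.62, −0.65 and −1.20 in anti-GBM vehicle mice NTS5 to NTS8, and −0.36, −0.40 and −3.21 in anti-GBM FGF23 mice NTS13, NTS14 and NTS16. All 7 anti-GBM mice were above all 7 healthy mice, with NTS16 just above NTS11. The SD was 1.00 (n = 4) and 1.63 (n = 3) in the anti-GBM groups and 0.17 (n = 4) and 0.26 (n = 3) in the healthy groups.

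The spread between anti-GBM mice was wider for the clock genes than for the median gene. The median SD of log2 CPM in anti-GBM mice was 0.49 over the 10 clock genes and 0.22 over all genes tested with vehicle, and 0.66 and 0.15 with FGF23. In healthy mice it was 0.15 for both with vehicle, and 0.27 over the clock genes against 0.15 over all genes with FGF23, so that clock genes also spread more than the median gene in that healthy group. Above the 90th percentile of all genes in SD were 3 of the 10 clock genes in anti-GBM vehicle and 7 in anti-GBM FGF23 mice, and 0 in healthy vehicle and 1 in healthy FGF23 mice.

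Other measures moved between the same mice. The 6 glucocorticoid-induced genes (Fkbp5, Tsc22d3, Zbtb16, Sgk1, Klf9, Per1) summed to 411 to 569 CPM in healthy mice, to 973 to 1318 CPM in anti-GBM vehicle mice, and to 610 to 1184 CPM in anti-GBM FGF23 mice. Per1, a period gene that glucocorticoids also induce, was at 140, 153, 101 and 80.7 CPM in NTS5 to NTS8 and at 40.7, 34.8 and 174 CPM in NTS13, NTS14 and NTS16, so that the mouse with the highest Ciart also had the highest Per1. The 6 leukocyte markers summed to 65.3 to 122 CPM in healthy and 109 to 175 CPM in anti-GBM mice. The part of these in the clock gene values was not tested.

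**Figure D3:**
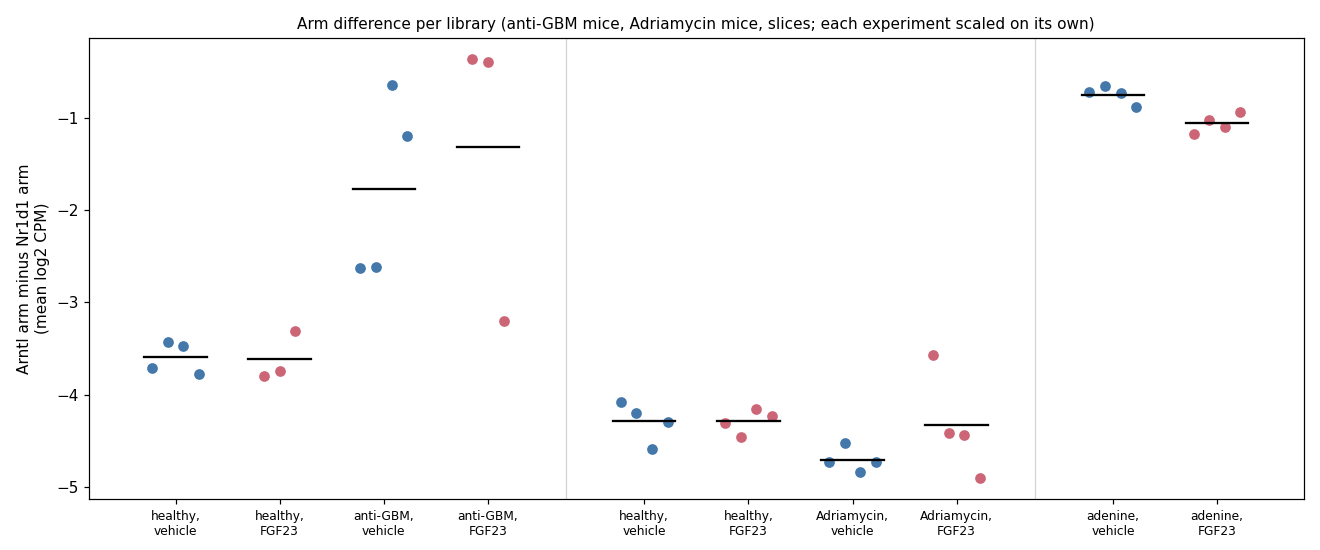
Mean log2 CPM of the Arntl arm minus that of the Nr1d1 arm (vertical axis) in each of the 38 libraries by group, with group means as bars; vehicle is blue and FGF23 red, and each experiment was scaled on its own. Anti-GBM mice range from −3.21 to −0.36, Adriamycin-experiment mice from −4.90 to −3.57, and slices from −1.17 to −0.66.

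Further clock and clock-linked genes were read from lists that do not include the 10. Of 11 other clock transcription factors, 4 rose and 1 fell in anti-GBM vehicle mice, and 2 rose and 2 fell with FGF23. For these lists too, 39.8% of all genes passed with vehicle and 27.2% with FGF23, and the counts are read as no more than a description of their members. Nfil3, a D-box repressor, rose by 2.10 ± 0.28 on the log2 scale with vehicle and by 2.62 ± 0.33 with FGF23. Tef, a relative of Dbp, fell by 0.52 ± 0.16 and 0.82 ± 0.18. Per1 (1.68 ± 0.42) and Cry2 (0.34 ± 0.12) rose with vehicle, and Rora (−0.42 ± 0.14) fell with FGF23.

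Of 12 genes that modify clock proteins, 3 rose and 6 fell with vehicle and 3 rose and 3 fell with FGF23. Csnk1e, a kinase of PER proteins, rose by 0.98 ± 0.12 and 0.69 ± 0.13 with vehicle and FGF23, respectively. Btrc, whose product marks PER proteins for degradation, fell by 0.40 ± 0.07 and 0.51 ± 0.08. Of 8 widely rhythmic genes, 3 rose and 1 fell with vehicle and 6 rose and 1 fell with FGF23. Noct, a rhythmic phosphatase, rose by 2.92 ± 0.48 and 2.196 ± 0.56, and Por, a partner of cytochrome P450 enzymes, fell by 0.39 ± 0.14 and 0.53 ± 0.16.

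FGF23 itself was compared with vehicle within each disease state. No clock gene passed in healthy mice of the anti-GBM experiment, where 0% of all genes did, nor by DESeq2, and 0 had an unadjusted p below 0.05. Cry1 ran lower with FGF23 (2.02 to 3.80 CPM) than with vehicle (3.99 to 5.49 CPM), a log2 fold change of −0.74 ± 0.35 with an adjusted p of 0.996. Its groups and those of Arntl and Nr1d2 did not overlap, 3 of 10 clock genes against 7.31% of all genes. In anti-GBM mice 0 clock genes passed, against 0.24% of all genes, and 0 by DESeq2; Clock alone had an unadjusted p below 0.05 (0.30 ± 0.14, adjusted p = 0.394). No clock gene had separate groups there, against 9.22% of all genes.

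The difference between the disease effects with and without FGF23 was tested as an interaction in the anti-GBM experiment. No clock gene passed by edgeR or DESeq2, against 0.0315% of all genes, and 1 (Clock, 0.43 ± 0.20) had an unadjusted p below 0.05. The fold changes of the 10 genes in this test ran from −0.62 to 0.50. With SEs of 1.17 for Ciart, 0.81 for Nr1d1 and 0.73 for Dbp, sizeable differences were not detectable in these mice.

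In the Adriamycin experiment the log2 fold changes of disease ran from −0.52 to 0.61 with vehicle and from −0.14 to 0.77 with FGF23. DESeq2, the package used by the study, called 3 clock genes with vehicle and 1 with FGF23. Ciart rose in Adriamycin mice with vehicle and with FGF23, and no other clock gene passed by edgeR. In vehicle mice 0.331% of all 16020 genes passed, 0.119% as higher, and with FGF23 0.699%, 0.462% as higher. Ciart was at 19.2, 19.6, 22.3 and 21.6 CPM in healthy vehicle mice Ad1 to Ad4 and at 33.97, 25.7, 26.7 and 31.9 CPM in Adriamycin vehicle mice Ad5 to Ad8 (log2 fold change 0.52 ± 0.10, adjusted p = 0.0376). With FGF23 it was at 17.8, 20.7, 19.7 and 20.3 CPM in healthy mice Ad9 to Ad12 and at 28.95, 34.4, 31.3 and 39.1 CPM in Adriamycin mice Ad13 to Ad16 (0.77 ± 0.10, adjusted p = 0.00258). All 8 Adriamycin mice were above all 8 healthy mice. The vehicle call was lost in 11 of the 16 fits that left out 1 mouse (log2 fold change 0.44 to 0.58) and when only these groups were fitted, while the FGF23 call passed in all 16.

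Nr1d1 and Cry1 moved in vehicle mice without passing. Nr1d1 was at 74.4, 89.8, 101.9 and 106 CPM in healthy and 142, 136, 154 and 134 CPM in Adriamycin vehicle mice (0.61 ± 0.13, adjusted p = 0.0683). Cry1 was at 18.3, 20.3, 19.99 and 19.01 CPM against 12.9, 15.105, 13.7 and 13.06 CPM (−0.50 ± 0.11, adjusted p = 0.0895). Neither set of values overlapped, and DESeq2 called both, with adjusted p of 0.00180 and 0.00614. These signs are the reverse of those in anti-GBM disease, but the experiments differ in strain, sex and scaling and the difference was not tested. In all, 4 clock genes had separate groups with vehicle, against 5.68% of all genes, and 1 with FGF23, against 6.02%.

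FGF23 in Adriamycin mice brought no call by edgeR, against 0.0375% of all genes, whereas DESeq2 called Nr1d1 and 3 clock genes had an unadjusted p below 0.05. Nr1d1 was at 78.6, 90.1, 89.3 and 131 CPM with FGF23 against 134 to 154 CPM with vehicle (−0.54 ± 0.13, adjusted p = 0.313 by edgeR and 0.0318 by DESeq2). Cry1 was at 17.95, 18.8, 18.1 and 11.5 CPM with FGF23 (0.28 ± 0.11, adjusted p = 0.840). In both genes Ad16 lay away from the other 3 mice, toward the vehicle group. Without Ad16 both passed, with Nr1d1 at −0.71 (adjusted p = 0.00935) and Cry1 at 0.42 (adjusted p = 0.0219). No other of the 16 fits that left out 1 mouse called either gene, and Ad16 is the mouse that went against the change. Of the 10 genes, 2 had separate groups (Nr1d1 and Npas2), against 3.41% of all genes.

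In healthy mice of the Adriamycin experiment, 0 clock genes passed by edgeR or DESeq2, as did 0% of all genes, and 1 had an unadjusted p below 0.05. This was Cry1, at 14.5, 15.14, 15.16 and 15.8 CPM with FGF23 and 18.3 to 20.3 CPM with vehicle (−0.35 ± 0.11, adjusted p = 0.688). It was the only clock gene with separate groups, against 3.14% of all genes. The interaction of FGF23 with Adriamycin disease called 0 clock genes by edgeR and DESeq2, against 0% of all genes, and 2 had an unadjusted p below 0.05. These were Cry1 (0.64 ± 0.16, adjusted p = 0.589) and Nr1d1 (−0.72 ± 0.19, adjusted p = 0.628). Without Ad16 Cry1 passed (0.77, adjusted p = 0.00538), but in no other of the 16 fits that left out 1 mouse.

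**Figure D4:**
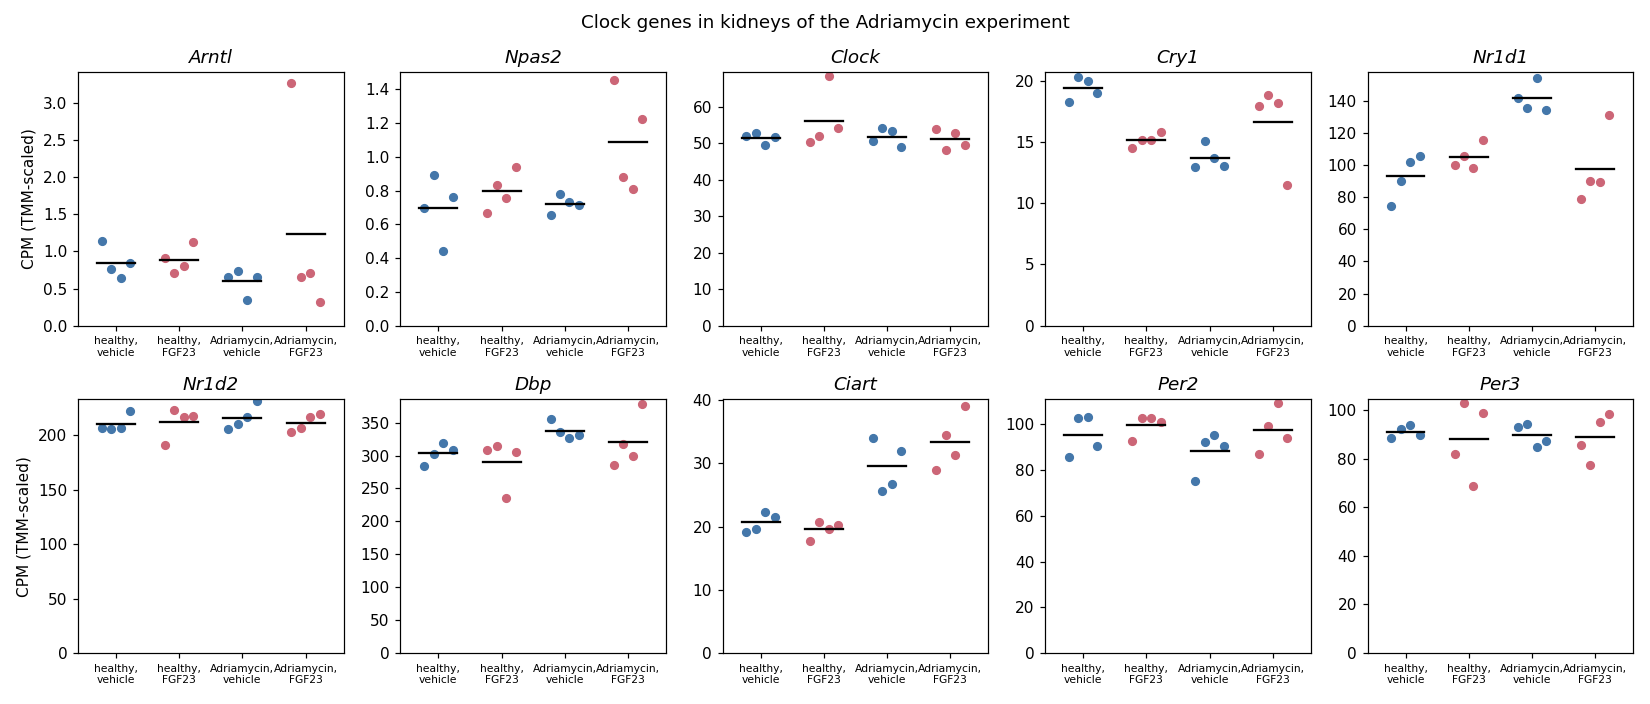
CPM (vertical axis, from 0) of the 10 clock genes in the 16 kidneys of the Adriamycin experiment by group; each point is a mouse, the bar is the group mean, and vehicle is blue and FGF23 red. Ciart is at 25.7 CPM or more in every Adriamycin mouse and at 22.3 CPM or less in every healthy one, and 1 Adriamycin FGF23 mouse has 3.27 CPM of Arntl.

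Among the listed genes outside the 10, 4 that rose in Adriamycin FGF23 mice against healthy FGF23 mice (adjusted p below 0.05 by edgeR) are given here. Of all genes tested, 0.462% passed as higher in that comparison. FGF23 against vehicle within Adriamycin mice called no listed gene. Usp2 (0.45 ± 0.07), a rhythmic deubiquitinase, Per1 (0.45 ± 0.08) and Noct (1.32 ± 0.29) rose, as did Sgk1 (1.17 ± 0.23), a glucocorticoid-induced kinase. The glucocorticoid-induced list summed to 865 to 1258 CPM in Adriamycin FGF23 mice and to 622 to 844 CPM in the other 3 groups, and its part in the clock gene values was not tested.

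Whether mice deviate in both arms together was tested as the correlation of Arntl with the 9 other clock genes after group means were removed, in each mouse experiment (two-sided permutation test, 100000 permutations within groups, adjusted over all 18 relations). In the 14 mice of the anti-GBM experiment 2 of 9 relations passed by r. Dbp went against Arntl, with r = −0.96 (permutation p = 0.000460, adjusted p = 0.00828) and rho = −0.96 (permutation p = 0.00215, adjusted p = 0.0355). Npas2 went with Arntl, with r = 0.76 (permutation p = 0.00538, adjusted p = 0.0484) and rho = 0.79 (permutation p = 0.00394, adjusted p = 0.0355). Without NTS13 and NTS14, the mice farthest from the median of Arntl, r was −0.95 for Dbp and 0.75 for Npas2. The group means removed were still those of all 14 mice, so NTS16 kept its distance from NTS13 and NTS14. This check therefore cannot show whether the relations hold without them. Ciart (r = −0.93, adjusted permutation p = 0.0862), Nr1d1 (−0.91, 0.0699) and Nr1d2 (−0.89, 0.0699) had large coefficients and missed the threshold by r. By rho, Nr1d2 narrowly passed (−0.91, adjusted permutation p = 0.0496), while Ciart (0.0786) and Nr1d1 (0.0612) missed again. The anti-GBM mice do not spread evenly, since NTS13 and NTS14 lie apart from NTS16 and NTS7 and NTS8 from NTS5 and NTS6, and each such set is too small for a correlation of its own. Without NTS16 no relation passed by r, and r with Dbp was −0.91 (adjusted permutation p = 0.0968). In the 16 mice of the Adriamycin experiment 0 of 9 relations passed. The strongest was with Nr1d1, with r = −0.70 (permutation p = 0.0702, adjusted p = 0.178) and rho = −0.43 (permutation p = 0.152). Without Ad13 and Ad16, the mice farthest from the median there, r was −0.34, again with the group means of all mice removed. Arntl was counted by 5 to 63 reads per mouse in that experiment.

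In PCKS the levels were unlike those of whole kidney, with Arntl at 25.0 to 37.8 CPM and Nr1d1 at 263 to 491 CPM in the 8 cultures. Slices differ from the mouse kidneys in strain, age, disease and culture, and scaling was done within each experiment. The values therefore stand side by side only, and their difference was not tested. FGF23 was compared with vehicle, and 0 clock genes passed by edgeR or DESeq2, as did 0% of all 15090 genes, with 1 at an unadjusted p below 0.05. This was Dbp, at 42.2, 37.3, 43.6 and 43.8 CPM with vehicle (cultures 1V to 4V) and 47.4, 53.5, 50.6 and 52.4 CPM with FGF23 (cultures 1F to 4F), a log2 fold change of 0.29 ± 0.08 (adjusted p = 0.849). Its groups did not overlap, which held for 3.17% of all genes and for no other clock gene.

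Nr1d1 was at 462, 263, 452 and 373 CPM with vehicle and 491, 458, 450 and 458 CPM with FGF23, with 2V and 4V low. Ciart showed the same low culture, at 41.7, 22.5, 42.4 and 34.2 CPM with vehicle and 60.3, 41.5, 43.5 and 40.9 CPM with FGF23. Per1 was likewise lowest in 2V at 199 CPM and next in 4V at 302 CPM, against 385 to 498 CPM in the other 6 cultures. Havcr1, a marker of proximal tubule injury, was highest in these same cultures, at 811 CPM in 2V and 563 CPM in 4V against 342 to 431 CPM in the others. The 4 injury markers together summed to 2482 CPM in 2V and 1887 CPM in 4V against 1392 to 1706 CPM in the others, the 7 kidney epithelial markers to 2757 and 2372 CPM against 4003 to 7733 CPM, and the 6 glucocorticoid-induced genes to 427 and 543 CPM against 630 to 764 CPM. The part of these in the clock gene values was not tested. The arm difference was −0.73, −0.66, −0.74 and −0.89 with vehicle and −1.17, −1.02, −1.10 and −0.94 with FGF23, without overlap.

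**Figure D5:**
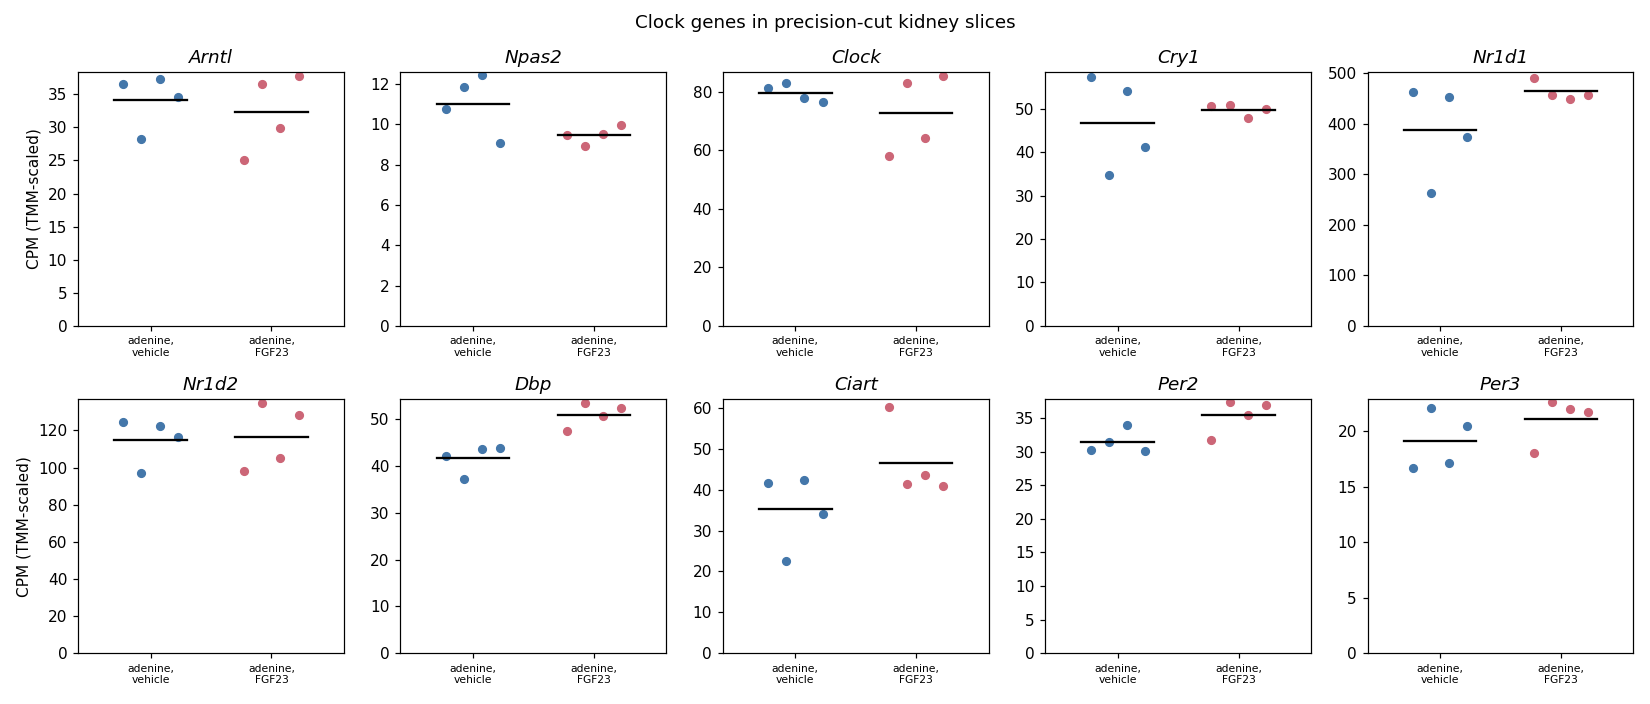
CPM (vertical axis, from 0) of the 10 clock genes in the 8 slice cultures by group; each point is a culture, the bar is the group mean, and vehicle is blue and FGF23 red. Dbp is at 47.4 CPM or more with FGF23 and at 43.8 CPM or less with vehicle, and the other genes overlap.

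The genes most like Arntl and Dbp were ranked by Pearson's r of log2 CPM, centred within each of the 10 groups, over the 38 libraries, as a description. For Dbp they were Tef (0.85), Bhlhe41 (0.82), Per1 (0.76), Cxcr4 (0.75) and Tmem258 (0.75), and the most unlike were Itga6 (−0.83), Snx11 (−0.83), Smg5 (−0.82), 2410131K14Rik (−0.80) and Csnk1d (−0.78). Among the clock genes, r with Dbp was 0.94 for Ciart, 0.91 for Nr1d1, 0.84 for Nr1d2, 0.52 for Per3, 0.02 for Per2 and −0.71 for Cry1. The 7 anti-GBM mice held 94.4% of the squared deviation of Dbp, so this order is largely theirs. For Arntl the most like were Edrf1 (0.74), Gm6977 (0.70), Rnmt (0.68), Leo1 (0.68) and Heg1 (0.68), and the most unlike Ccn2 (−0.73), Id1 (−0.69), Bhlhe40 (−0.69), Rtl8c (−0.67) and Agk (−0.66). The same mice held 28.04% of the squared deviation of Arntl. Arntl deviated most from its group mean in Adriamycin FGF23 mice Ad13 (log2 CPM 1.75, 63 reads) and Ad16 (−1.27, 5 reads). The order for Arntl thus rests in large part on these mice and their low counts.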

How the data were processed

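RNA of mouse kidneys and slices was sequenced from stranded mRNA libraries as 58 bp paired-end reads. The authors processed the reads with bcl2fastq 2.20.0, FastQC 0.11.8, STAR 2.7.9a and featureCounts 1.5.1 on GRCm38 (names and versions per the labels) and deposited raw counts per Ensembl gene without normalization. Strand and multi-mapping settings of the counting are not given in the sources used here. Samples were grouped by their labels, with columns of mice matched through the sample tables of the study; columns not used numbered 0. Each mouse library was taken as a separate animal. The study's headers, however, end the labels of healthy FGF23 mice NTS10 and NTS11 in the same animal tag. If that tag is right, this group holds fewer animals than libraries. The column taken as mouse NTS14 has a name ending in NTS4, while the study's header labels its mouse NTS14. The study calls the 4 slice cultures per group biologically independent, and their p-values measure the spread between cultures.

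Counts were scaled by TMM, filtered with filterByExpr (minimum count 10) and tested with edgeR 4.0.16 (quasi-likelihood, R 4.3.3), 1 fit per experiment with all its groups, Benjamini-Hochberg within each comparison, threshold 0.05. SEs were derived from the F statistic. Log2 CPM used a prior count of 2. Exon lengths came from GENCODE vM21. DESeq2 1.42.0, RLE scaling, other filters, fits, adjustments and cutoffs, and each library left out were alternatives. The test was checked on simulated counts. The genes, lists and tests were chosen with earlier results of these data known. Named were all 10 clock genes, list genes that passed (at most 4 per list and direction by p) and the 5 most and least like Arntl and Dbp; Havcr1 in the slices was chosen after its values were seen. Some listed genes that passed are not reported here.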

Additional observations from a re-analysis of the deposited data

Results flagged for a closer look

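Each of the 10 clock genes and the arm difference was checked for a sample far from the others in the 8 groups of 4, 88 checks of which chance alone flags about 1 in 20, and 6 stood out. Among Adriamycin FGF23 mice, Ad13 had Arntl at 3.27 CPM against 0.321 to 0.714 CPM in the other 3, and Ad16 had Cry1 at 11.5 CPM against 17.95 to 18.8 CPM. Among healthy FGF23 mice of the Adriamycin experiment, Ad11 had Dbp at 235 CPM against 305 to 314 CPM, and Ad9 had Per2 at 92.6 CPM against 101 to 103 CPM. Healthy vehicle mouse Ad4 had Nr1d2 at 222 CPM against 206 to 207 CPM. In PCKS with FGF23, culture 1F had Ciart at 60.3 CPM against 40.9 to 43.5 CPM. Both FGF23 groups of the anti-GBM experiment hold 3 mice and could not be checked this way, so NTS16 was outside this check.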

How the results depend on the processing

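RLE scaling moved the median of all genes by at most 0.0177 on the log2 scale. In anti-GBM vehicle mice the count of called clock genes was 3 with an added cutoff of log2 fold change 1, and 5 to 9 with each library left out. Adjustment over all comparisons took the calls of Npas2 (adjusted p = 0.0872 by edgeR) and Clock (0.0652) there. In anti-GBM FGF23 mice the count was 4 with the fold cutoff, with a robust fit and with adjustment over all comparisons, and 2 to 7 with each library left out. In Adriamycin vehicle mice it was 3 without a filter, with DESeq2 and at an adjusted p below 0.1, 0 with the fold cutoff and with adjustment over all comparisons, and 0 to 3 with each library left out; with FGF23 it was 0 with the fold cutoff. For FGF23 in Adriamycin mice it was 1 with DESeq2 and 0 to 2 with each library left out, and for the interaction there 0 to 1. Ciart in anti-GBM vehicle mice ran from −0.496 to 0.221 and Clock in anti-GBM FGF23 mice from −0.0586 to 0.178 as libraries were left out. With all libraries, the adjusted p of Cry1, Arntl, Nr1d2 and Per2 passed in both anti-GBM comparisons under every alternative run. The lowest counts came without NTS4 or NTS8 with vehicle and without NTS13 with FGF23, where Arntl (adjusted p = 0.0511) and Nr1d2 (0.0674) also missed, and the highest Adriamycin counts without Ad16; the cause was not tested. Of the 14 fits that left out 1 mouse, the call was lost in 11 for Per3, 9 for Dbp, 4 for Nr1d1 and 2 for Nr1d2 with FGF23, and in 8 for Clock, 5 for Npas2 and 2 for Per3 with vehicle, while Dbp gained a call with vehicle in 4. Of the 18 correlations with Arntl, 2 passed by r with another prior count and with RLE scaling, and 0 to 3 with each library left out. The count was 1 without NTS1, NTS4, NTS5, NTS6, NTS7, NTS13 or NTS14 and 0 without NTS16. Arntl counts of 5 to 63 limit the Adriamycin mice. When culture numbers entered the slice fit as a replicate block, 0 clock genes passed and Dbp was at 0.29 (adjusted p = 0.796); the deviations of same-numbered cultures correlated at 0.107, 0.105, −0.105 and 0.112, above 0.1 in 3 of 4 pairs but not in all, so pairing was not assumed. No paired analysis was possible for mice because mice of different groups share no number in the columns, apart from the NTS4 in the column name of NTS14.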
